A study of Mus musculus with 6 samples.

Results

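The genes described here handle iron and heme: Fth1 and Ftl1, Hmox1, Trf, Tfrc, Slc11a2, Slc11a1, Slc40a1, Cp and Hamp. Every probe on the array whose RefSeq accession belonged to one of these 10 genes was taken, whatever its signal. That gave 19 of the 56605 probes that are not controls, with at least 1 probe for each of the 10 genes, and 16 of the 19, covering 9 genes, were bright enough to be tested. Hamp was the gene with no tested probe. In all, the named probes of the array cover 23462 genes. Expression was measured on single-colour Agilent arrays in microglia, the resident macrophages of the brain, isolated from mice with acute ischemic stroke (AIS) by magnetic selection for the surface receptor P2RY12. The 3 control samples came from PGC-1α f/f mice, which carry a loxP-flanked PGC-1α allele with eGFP. The 3 mPGC-1α samples came from mice that carry, besides that allele, a tamoxifen-inducible Cre recombinase in the Cx3cr1 locus, which is active in microglia and related macrophages and was meant to switch on PGC-1α. All 6 samples were labelled male and 10 weeks old. The labels give no time after stroke, and the series holds no sample without stroke, so the comparison is between genotypes in AIS alone.

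Cells take up iron as ferric iron bound to transferrin, through the transferrin receptor, and divalent metal transporters carry it from the endosome or lysosome into the cytosol. Iron that is not used is stored in ferritin or leaves through ferroportin, helped by the ferroxidase ceruloplasmin, and hepcidin closes that exit by binding ferroportin. Heme from dying red cells is opened by heme oxygenases, which releases its iron. In the injured brain, macrophages that have taken up blood or debris are known to be rich in ferritin and heme oxygenase.

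Levels are given as log2 of the background-corrected signal minus log2 of the 75th percentile of all spots that are not controls on the same array, so a level of 0 is a spot at that percentile. They are listed in the order of arrays 1, 2 and 3 of a group. Differences are mPGC-1α minus control on the log2 scale, with the standard error (SE) and 95% interval of limma's fit, and the adjusted p is over all 40745 probes tested (n = 3 arrays a group unless stated). The signal was well above background on 73.5% to 86.5% of spots in the control arrays and on 71% to 85.2% in the mPGC-1α group. Saturation was seen on 0 spots. Outlier-marked spots were dropped. They numbered between 549 and 1094 on the 4 arrays of the first slide, and 3010 and 4931 on the second slide, which held array 3 of each group.

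The labels were checked first. Ppargc1a, which encodes PGC-1α, read −1.44, −0.94 and −0.93 on the control arrays and −1.49, −1.27 and −1.54 on the mPGC-1α arrays with its brighter probe. The difference of −0.33 (SE 0.24, adjusted p = 0.817) did not pass the test, and its other tested probe differed by −0.43, so a higher Ppargc1a level in the arrays labelled mPGC-1α was not seen. Where these probes lie in the transcript was not known, so whether they read the PGC-1α of the added allele was not tested. The paper reports raised PGC-1α mRNA by qRT-PCR in primary cultured microglia of mPGC-1α mice. Cx3cr1 read 3.81, 3.28 and 3.71 against 2.38, 1.95 and 2.72, without overlap between the groups, and differed by −1.25 (SE 0.24, adjusted p = 0.669); without control array 2 it was −1.41 (adjusted p = 0.0128). Of 10 microglial markers, Cx3cr1 among them, 8 were tested, 2 above 0 and 6 below, with a median of −0.27. With 1 array left out it ran from −0.78 (4 tested, without mPGC-1α array 1) to −0.15 (7 tested, without control array 2). On its unmarked spots the selection marker P2ry12 read 3.54 on control array 3, and 3.87 and 3.88 on mPGC-1α arrays 1 and 2. Tmem119, another microglial gene, read 4.76 on control array 1, and 4.98 and 5.11 on mPGC-1α arrays 1 and 2. Neither gene was tested. Control array 2 stood apart in sex-linked transcripts: of 7 probes for 4 Y-linked genes, 4 were well above background on that array alone, and Xist, an RNA made by the silenced X of female cells, read −5.21 there against −0.97 to −0.51 on the other 5 arrays. In these probes control array 2 was the array that matched the male label, and the other 5 went against it. The values that moved most without control array 2 stand beside the results they touch.

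None of the 16 tested probes passed the adjusted threshold of 0.05, and none did among all 40745 probes either (0% of them). The smallest adjusted p over all probes was 0.573. At an unadjusted p below 0.05 there was 1 of the 16, a probe of Cp, beside 7.15% of all tested probes. Among the 13 tested probes with all 6 values, 1 had no overlap between the groups, a probe of Trf, beside 11% of all probes. The 16 differences had a median of 0.02, against 0.06 over all tested probes, and 11 were above 0 and 5 below it, where 57.9% of all tested probes were above 0. That split depended on the scaling, with 6 above 0 and 10 below after quantile normalization, and on mPGC-1α array 1, with 5 above and 8 below of 13 tested without it. With the replicate number as a block, 0 of the 16 passed the adjusted threshold, beside 0.00245% of all probes, and 5 had an unadjusted p below 0.05, beside 11.7% of all probes.

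**Figure D1:**
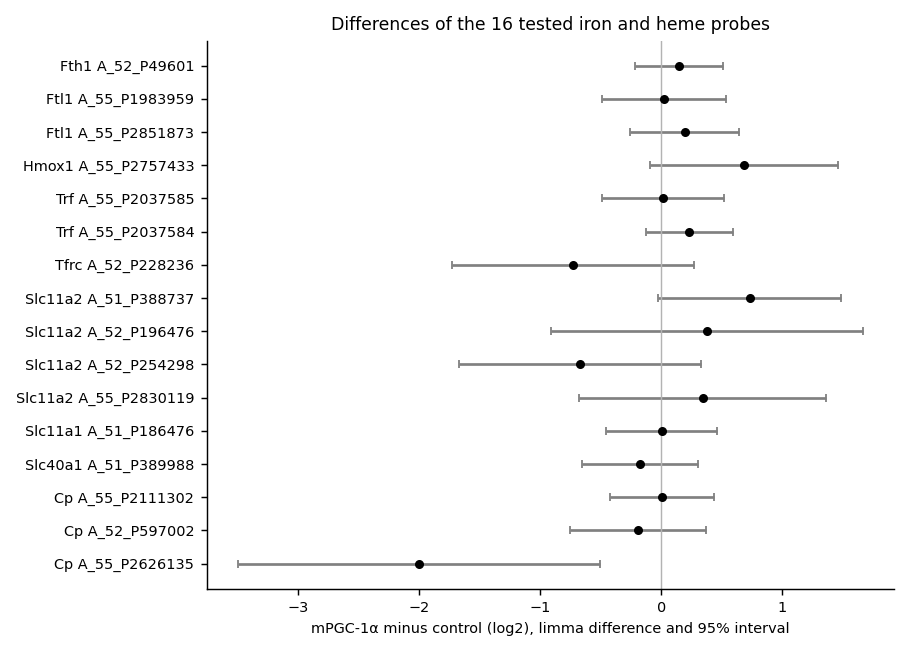
Difference between mPGC-1α and control (log2, x axis) for each of the 16 tested probes of the iron and heme genes (y axis). Points are limma's estimates and bars their 95% intervals, with 3 arrays a group except where spots were marked; only the interval of the Cp probe A_55_P2626135, from −3.49 to −0.50, lies to one side of 0, and its adjusted p was 0.669.

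The ferritin subunits had levels far above the 75th percentile on every array. Ferritin is a shell of heavy chains, encoded by Fth1, which oxidise iron, and light chains, encoded by Ftl1, which help it to mineralise. The Fth1 probe (A_52_P49601) read 4.78, 5.07 and 4.99 in control and 5.19, 5.02 and 5.06 in mPGC-1α microglia. The groups overlapped, the difference was 0.15 (SE 0.16, adjusted p = 0.886), and the 95% interval ran from −0.22 to 0.51, or from 0.859-fold to 1.43-fold. The Ftl1 probe with all 6 values (A_55_P2851873) read 4.17, 4.76 and 4.44 against 4.67, 4.83 and 4.46, a difference of 0.19 (SE 0.20, adjusted p = 0.876). The brighter Ftl1 probe (A_55_P1983959) was marked on both arrays of the second slide, and on the other 4 read 4.55 and 4.76 against 4.61 and 4.75, a difference of 0.02 (n = 2 arrays a group). Both ferritin probes with 6 values were lowest on control array 1. The sign of the Fth1 difference and of the brighter Ftl1 probe's turned under quantile normalization, to −0.05 and −0.21.

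The sequences upstream of the ferritin genes are shown because both subunits read high on every array. They are the 100 bases before the RefSeq start, 5′ to 3′ on the gene's own strand, from GRCm38.p6, with matches to the CCAAT box (ATTGG on the strand shown or its complement) and the GC box (GGGCGG or its complement) in capitals.
Fth1 (chr19:9982546-9982645, plus strand): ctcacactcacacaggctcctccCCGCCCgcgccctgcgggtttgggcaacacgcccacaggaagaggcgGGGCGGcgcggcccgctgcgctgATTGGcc
Ftl1 (chr7:45459887-45459986, minus strand): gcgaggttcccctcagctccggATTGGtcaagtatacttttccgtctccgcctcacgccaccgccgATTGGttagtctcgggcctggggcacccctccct
An ATTGG match begins 7 bases before the start in Fth1, and 78 and 34 bases before it in Ftl1. GC box matches begin 77 and 30 bases before the start in Fth1. Of the RefSeq starts listed for Fth1, the downstream one was used. Of 32851 RefSeq promoter windows of 300 bases, 37.4% hold ATTGG and 35.7% hold GGGCGG on either strand, so these matches are common. Windows were on hand for 6 of the 10 genes.

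Hmox1, the inducible heme oxygenase, was uniform in mPGC-1α microglia and varied in control. Its probe (A_55_P2757433) read 1.43, 1.88 and 0.35 on the control arrays and 1.85, 2.00 and 1.85 on the mPGC-1α arrays. Control array 3 was the low one, and control array 2 lay within the range of the mPGC-1α arrays. The difference was 0.68 (SE 0.34, unadjusted p = 0.0788, adjusted p = 0.739), a ratio of 1.60 with a 95% interval from 0.936 to 2.74, and the exact permutation p was 0.3, where 0.1 is the smallest that 3 against 3 arrays allow. Slide by slide it was 0.27 on the first and 1.50 on the second, which held control array 3. Without control array 3 it was 0.25, and without control array 2 it was 1.01 (adjusted p = 0.112). The constitutive enzyme Hmox2 read 3.10, 3.40 and 3.19 against 3.36, 3.45 and 3.52, a difference of 0.22 (SE 0.17, adjusted p = 0.831). A dimmer Hmox2 probe (A_66_P130868) went the other way, by −0.16 (SE 0.22, adjusted p = 0.916).

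Transferrin and its receptor did not pass the test. Trf encodes the plasma carrier of ferric iron, which oligodendrocytes and choroid plexus cells also make. The Trf probe with all 6 values (A_55_P2037584) read 4.19, 4.42 and 4.40 in control and 4.57, 4.56 and 4.58 in mPGC-1α microglia. Every mPGC-1α array lay above every control array, and the mPGC-1α values were close together (SD 0.0098, against 0.13 in control). The difference was 0.23 (SE 0.16, adjusted p = 0.805), with a 95% interval from −0.12 to 0.59 and an exact permutation p of 0.1, the smallest that 3 against 3 arrays allow. That size depended on the scaling: it was 0.06 after quantile normalization, 0.03 after normexp with quantile normalization and 0.08 in the authors' matrix. The brighter Trf probe (A_55_P2037585), marked on both arrays of the second slide, read 4.80 and 4.71 against 4.66 and 4.88, with the groups interleaved and a difference of 0.01 (SE 0.22, n = 2 arrays a group). Its sign turned under quantile normalization (−0.22).

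Markers of other cells stand beside the Trf values, because these samples are bulk RNA and more cells of a type cannot be told apart from more RNA per cell. All 11 genes of an oligodendrocyte list were tested and 10 were above 0 (median 0.80, and 0.50 without mPGC-1α array 1), and the summed linear level of the 9 with all values ranged from 7.30 to 14.1 in control and from 15.5 to 27.0 in mPGC-1α arrays. Of the choroid plexus list, 8 of 10 were tested and 0 were above 0 (median −0.62), with sums of 15.9 to 25.9 in control and 10.1 to 20.2 in mPGC-1α arrays. That median rested on both control array 2 and mPGC-1α array 1, and was −0.37 without the former and −0.21 without the latter, with 1 of 6 above 0. In the astrocyte list 9 of 9 tested were above 0 (median 0.95), with sums of 9.56 to 14.6 and 16.5 to 40.4, and without mPGC-1α array 2 the median was 0.50, with 8 of 9 above 0. In the neuron list 10 of 10 were above 0 (median 0.95, and 0.63 without mPGC-1α array 2), with sums of 30.9 to 50.4 and 49.0 to 56.5. Gad1 of this list passed the filter on dim probes only through the mPGC-1α arrays, where it was high. With a filter that asked for signal in both groups, 9 of 9 neuron markers were above 0 (median 0.93). No gene of these lists passed the adjusted threshold over all 6 arrays. By the brightest probe, 61.7% of all tested genes were above 0. The choroid plexus and neuron sums overlapped between the groups. Monocyte and border macrophage markers had 1 of 10 above 0 (median −0.18). Neutrophil markers had 4 of 7 (median 0.0017), and endothelial and mural markers 6 of 8 (median 0.15). The part of these cell types in the values of Trf, or of Cp below, was not tested.

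Tfrc encodes the transferrin receptor, whose messenger RNA is stabilised when cytosolic iron is low. Its tested probe (A_52_P228236) read −0.52, 0.52 and −0.88 in control and −1.87, −0.42 and −0.77 in mPGC-1α microglia. Control array 2 was the highest and mPGC-1α array 1 the lowest of the 6. The difference of −0.73 (SE 0.44, adjusted p = 0.783) had a 95% interval from −1.73 to 0.27, and it was −1.15 within the first slide and 0.11 within the second. Without control array 2 it was −0.32. The dim second Tfrc probe was well above background on 2 control arrays and 1 mPGC-1α array and was not tested.

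The divalent metal transporters differed in how steady they were. Slc11a1, also called Nramp1, moves metal across the membrane of the phagosome in macrophages. Its probe (A_51_P186476) read 3.47, 2.92 and 3.28 in control and 3.35, 3.01 and 3.33 in mPGC-1α microglia, with the groups interleaved. The difference was 0.0043 (SE 0.20), with a 95% interval from −0.46 to 0.46 and an adjusted p of 0.998; after quantile normalization it was −0.13, and without control array 2 it was −0.15.

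Slc11a2, or DMT1, carries iron out of the endosome after transferrin uptake, and its 4 probes, all tested, did not move together. The leading probe (A_51_P388737) read −0.10, −0.25 and −1.01 in control and 0.77, −0.31 and 0.38 in mPGC-1α microglia. Array 1 was the highest and array 2 the lowest of the mPGC-1α group, and mPGC-1α array 2 lay below 2 of the control arrays. The difference was 0.73 (SE 0.34, unadjusted p = 0.0565, adjusted p = 0.708), and within the slides it was 0.40 and 1.39. A second probe of the same accession (A_52_P254298) read −0.73, −2.10 and −2.35 against −1.83, −2.61 and −2.76, a difference of −0.67 (SE 0.44, adjusted p = 0.799) in the other direction. The remaining probes differed by 0.38 (SE 0.57) and 0.34 (SE 0.45), with adjusted p of 0.927 and 0.910. The first of these is assigned to a different RefSeq transcript, and the second had no value on mPGC-1α array 3. Without control array 2 they differed by 0.67 and 0.17.

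**Figure D2:**
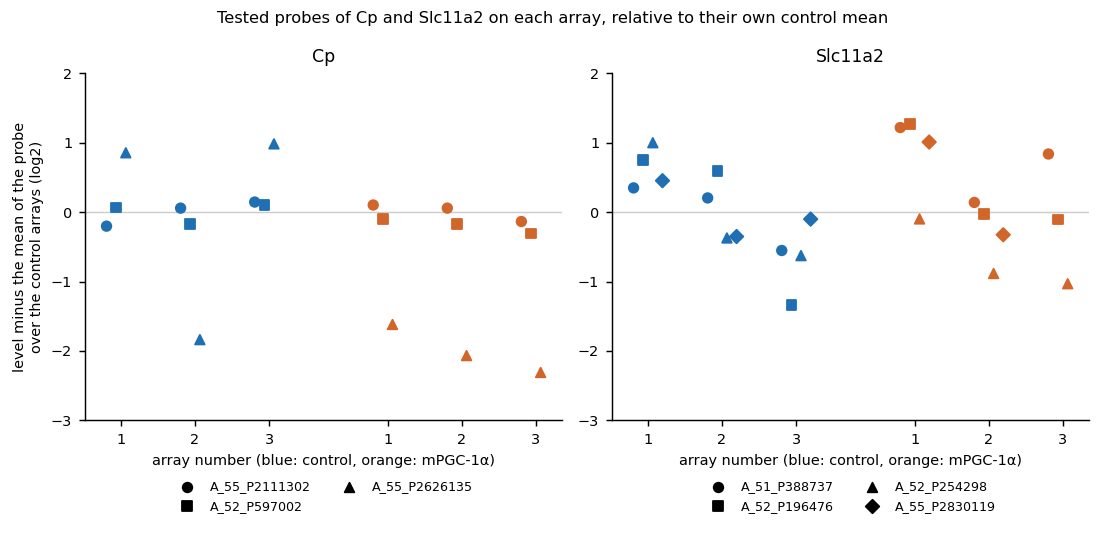
Level of each tested probe of Cp (left) and Slc11a2 (right) minus the mean of the same probe over the 3 control arrays (log2, y axis) on each array (x axis, control in blue and mPGC-1α in orange). Marker shape names the probe; of the 3 Cp probes only A_55_P2626135 spreads by more than 0.412 over the 6 arrays, with control array 2 next to the mPGC-1α arrays, and the 4 Slc11a2 probes differ in direction.

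Iron export was followed through Slc40a1 and Cp. Slc40a1 encodes ferroportin, the known exporter of cellular iron. Its probe (A_51_P389988) read 1.62, 1.07 and 1.61 in control and 1.33, 1.18 and 1.26 in mPGC-1α microglia. Control arrays 1 and 3 were above all mPGC-1α arrays and control array 2 below them. The difference was −0.18 (SE 0.21, adjusted p = 0.896), with a 95% interval from −0.66 to 0.30. Without control array 2, the only control array below the mPGC-1α arrays, the difference was −0.36 (SE 0.16, adjusted p = 0.249).

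Cp encodes ceruloplasmin, a copper ferroxidase that loads exported iron onto transferrin and that astrocytes are known to make. The leading Cp probe (A_55_P2111302) read 1.39, 1.65 and 1.74 in control and 1.70, 1.65 and 1.46 in mPGC-1α microglia. The difference was 0.0082 (SE 0.19, adjusted p = 0.996), with a 95% interval from −0.42 to 0.44, and its sign turned under quantile normalization (−0.06). A second probe, assigned to another transcript (A_52_P597002), read −2.49, −2.73 and −2.46 against −2.66, −2.73 and −2.87, a difference of −0.19 (SE 0.25, adjusted p = 0.910).

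The third tested Cp probe (A_55_P2626135) gave the widest difference among the 16. It read −1.30, −3.99 and −1.17 in control and −3.77, −4.22 and −4.46 in mPGC-1α microglia. Control arrays 1 and 3 were far above the others, while control array 2 lay within the mPGC-1α range. The difference was −2.00 (SE 0.66, unadjusted p = 0.0142, adjusted p = 0.669), the exact permutation p was 0.2, and within the slides it was −1.35 and −3.29. The leading probe and this one are assigned to the same RefSeq accession. Without control array 2 the difference of this probe was −2.92 (SE 0.27, adjusted p = 0.00118), the 1 call among the 14 tested probes of the 10 genes in that fit, in which 2130 of 39288 probes (5.42%) passed.

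Hamp, the gene for hepcidin, was at the edge of detection. Its probe (A_52_P669922) read −7.15, −6.93 and −5.74 in control and −4.67, −6.16 and −7.24 in mPGC-1α microglia. It was well above background on mPGC-1α arrays 1 and 2, and on none of the control arrays. Its control mean was −6.61, and the mPGC-1α mean without array 1 was −6.70. The groups overlapped, since mPGC-1α array 3 was the lowest of the 6. Slide by slide the difference was 1.63 on the first and −1.50 on the second. Hamp2, a neighbouring gene of the same family, was well above background on all arrays and read −3.50, −2.40 and −2.70 against −2.39, −2.95 and −2.31, a difference of 0.32 (SE 0.35, adjusted p = 0.884).

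The upstream sequences of this pair are shown because the paralogs sit near each other and were read by separate probes. They cover bases 120 to 61 before the RefSeq start in GRCm38.p6, 5′ to 3′ on the minus strand, with the BMP element GGCGCC and the STAT element TTCNNNGAA in capitals.
Hamp (chr7:30944090-30944149): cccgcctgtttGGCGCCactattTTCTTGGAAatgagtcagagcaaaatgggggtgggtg
Hamp2 (chr7:30924242-30924301): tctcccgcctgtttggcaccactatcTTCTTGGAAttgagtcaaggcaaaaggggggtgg
The STAT element begins 97 bases before the start of Hamp and 94 before that of Hamp2. GGCGCC begins 109 bases before the start of Hamp, and no match to it begins in the 250 bases before the start of Hamp2. Either-strand matches are held by 11.9% of the 32851 windows for GGCGCC and by 8.3% for TTCNNNGAA. Those windows hold 250 bases before the start and 50 after it.

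**Figure D3:**
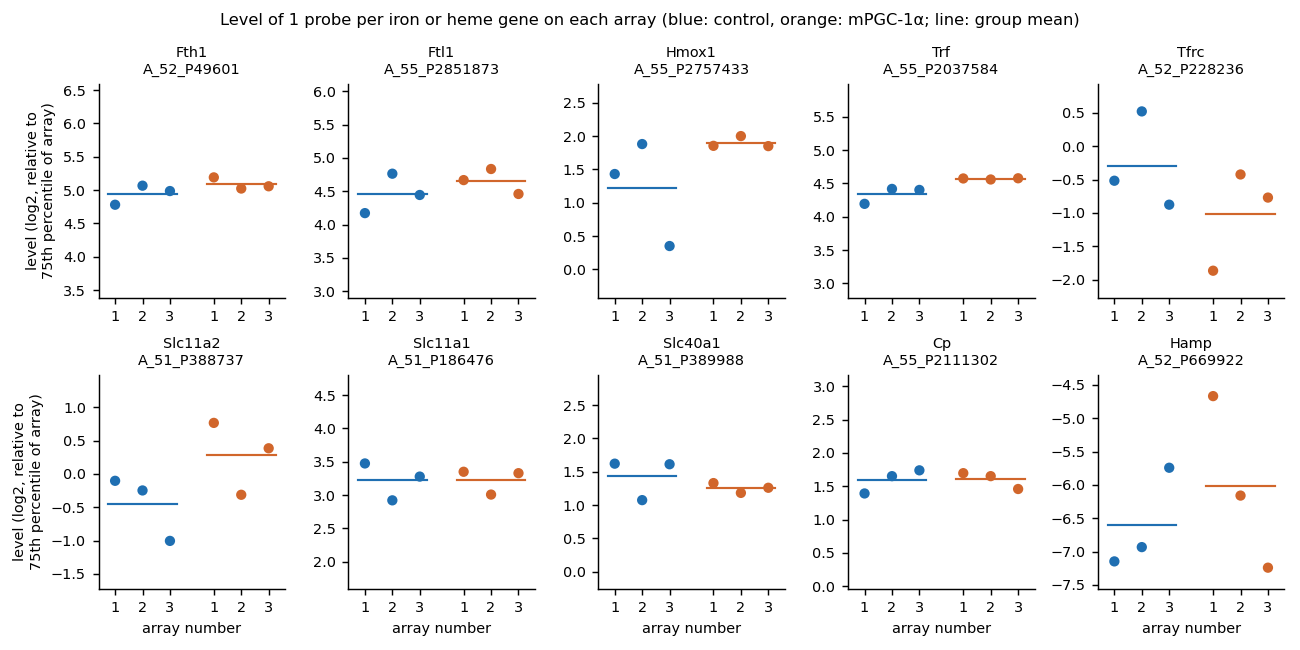
Level of 1 probe per gene (log2, relative to the array's 75th percentile, y axis) on each array (x axis), with control arrays in blue, mPGC-1α arrays in orange and a line at each group mean (n = 3). Panels share the same span of 3.2 log2 units but not the same position; Fth1, Ftl1, Trf, Slc11a1, Slc40a1 and Cp vary little, and Hmox1, Tfrc, Slc11a2 and Hamp spread further, Hmox1 by 1.65 and Tfrc by 2.39 over the 6 arrays.

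Precision followed brightness. The half-widths of the 95% intervals ran from 0.357 to 0.510 for the 6 tested probes with a mean level above 2, and from 0.430 to 1.50 for the other 10.

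Around these 10 genes stand the wider genes of iron and heme, read by the brightest tested probe of each: 65 were on the array and 60 were tested. None passed the adjusted threshold (0% of all probes). By unadjusted p below 0.05, 0 were higher and 3 were lower in mPGC-1α microglia, beside 2.3% and 4.85% of all tested probes. Of all tested genes by their brightest probe, 5.94% reached that p in either direction. The 3 were Steap4, Nqo1 and Bmp6, of which Steap4 passed the filter on dim probes only through the control arrays. Counting every tested probe of the wider genes, 8 of 86 had an unadjusted p below 0.05, beside 7.15% of all probes. By brightest probe, with the replicate block 2 were higher and 5 lower by the same measure, 7 of the 60 beside 11.7% of all probes. The median difference of the 60 was 0.02, with 32 above 0 and 28 below, and after quantile normalization it was −0.05, with 26 above and 34 below. Without control array 2 it was 0.07 (0.17 over all tested probes in that fit), with 35 above and 23 below of 58 tested. Without control array 1 it was −0.13 (18 above, 39 below), without mPGC-1α array 2 it was −0.11 (14 above, 36 below), and with the replicate block −0.05 (28 above, 32 below). Of the 60, 50 had all 6 values, and 5 of these (10.0%) had no overlap between the groups, beside 11% of all probes.

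Heme synthesis genes, which build heme from glycine and succinyl-CoA, had a median difference of −0.10 over 9 of 9 tested, 3 above 0 and 6 below. It was −0.21 with the replicate block, 1 above and 8 below, and 0.02 without control array 2, 5 above and 4 below. Alas2, the enzyme of the first step in red cell precursors, read −0.22, 1.79 and 0.15 in control and −0.35, 2.32 and 1.15 in mPGC-1α microglia, a difference of 0.47 (SE 0.67, adjusted p = 0.918). It was highest on array 2 of each group. The same held for 4 of the 7 heme synthesis genes with all 6 values and for 6 of 7 genes of mitochondrial iron and iron-sulfur clusters. Of the erythrocyte markers, a list that also holds Alas2, the 5 others with all values were highest on array 2 of each group as well. The summed linear level of these 5 ranged from 27.8 to 89.0 in control and from 36.7 to 75.9 in mPGC-1α arrays, and their part in these heme genes was not tested. The pattern was not particular to red cell genes. Among markers with all 6 values it held for 6 of 10 of neurons, 3 of 6 of choroid plexus, 1 of 4 of microglia and 0 of 9 of oligodendrocytes. Its share over all probes was not counted.

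Heme binding, transport and breakdown had 11 of 11 genes tested, 5 above 0 and 6 below, with a median of −0.02 that ran from −0.22 without control array 1 to 0.10 without mPGC-1α array 1. Hpx, for the heme scavenger hemopexin, was dim and read −5.07, −4.62 and −5.13 against −4.67, −4.78 and −5.95, a difference of −0.20 (SE 0.42, adjusted p = 0.950). It was not well above background on mPGC-1α array 3, so it was tested only through the control arrays and its difference rests in part on a background reading. With a filter that asked for signal in both groups, the median of the list was 0.0060 over 10 tested, 5 above 0 and 5 below.

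Iron uptake, reduction and oxidation had 10 of 12 genes tested, 5 above 0 and 5 below, with a median of −0.08 that ran from −0.22 without mPGC-1α array 2 to 0.12 without mPGC-1α array 1. With a filter that asked for signal in both groups it was 0.01 over 9 tested, 5 above 0 and 4 below. Hephl1, a ferroxidase of the ceruloplasmin family, read −2.16, −1.42 and −1.70 in control and −1.33, −0.97 and −1.31 in mPGC-1α microglia, without overlap, a difference of 0.56 (SE 0.27, adjusted p = 0.728). Heph, for the ferroxidase hephaestin, read −1.29, −0.55 and −1.24 against −0.47, −0.58 and −0.58, a difference of 0.48 (SE 0.26, adjusted p = 0.749), with control array 2 among the mPGC-1α values. Its 3 tested probes were all above 0. Lcn2, which binds the siderophores of bacteria, read 4.75, 5.38 and 5.32 against 4.35, 5.41 and 5.16, a difference of −0.18 (SE 0.29). Steap4, a metalloreductase, read −4.20, −6.49 and −2.44 against −8.37, −6.46 and −7.60. It was well above background on all 3 control arrays and on 1 mPGC-1α array, so the size of its difference was not measured. Set against the dimmest signal that counted as above background, or the probe's own where that was higher, the control mean was 3.69-fold higher (limma adjusted p = 0.669 for the levels as measured). Some undetected probes read above that dimmest signal, so this value is not a strict bound. Control array 2 lay beside mPGC-1α array 2.

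Iron regulation and ferritin turnover had 12 of 13 genes tested, 4 above 0 and 8 below, with a median of −0.12 that ran from −0.29 without control array 1 to −0.0060 without control array 2. The iron-regulatory proteins that bind ferritin and transferrin receptor messages differed by −0.09 (Aco1, SE 0.20, adjusted p = 0.953) and −0.25 (Ireb2, SE 0.23, adjusted p = 0.856). A dimmer Aco1 probe (A_55_P2634971) read −1.88, −3.46 and −2.26 against −3.63, −3.99 and −4.58, without overlap, a difference of −1.54 (SE 0.44, unadjusted p = 0.00656, adjusted p = 0.669). Ncoa4, which delivers ferritin to the lysosome, differed by −0.04 (SE 0.24, no value on mPGC-1α array 3). A dimmer Ncoa4 probe (A_52_P443427) differed by −0.40 (SE 0.28, adjusted p = 0.816), without overlap. Bmp6, the ligand known to raise hepcidin in liver, read −0.31, −0.41 and 0.76 in control and −1.84, −0.50 and −0.71 in mPGC-1α microglia, without overlap, a difference of −1.03 (SE 0.42, unadjusted p = 0.0346, adjusted p = 0.682).

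Mitochondrial iron and iron-sulfur cluster genes had 9 of 11 genes tested, and all 9 differences were above 0, between 0.02 and 0.24, with a median of 0.09. All tested genes by their brightest probe had a median of 0.09 as well, and 61.7% of them were above 0. After quantile normalization 8 of the 9 were above 0, and after normexp background correction 6. The count also rested on single arrays: without control array 1 it was 4 of 9 (median −0.05), without control array 3 it was 5 of 9 (0.02), and without mPGC-1α array 2 it was 3 of 7 (−0.02). Slc25a28, which imports iron into mitochondria, read 1.32, 1.35 and 1.61 against 1.69, 1.61 and 1.69, without overlap, a difference of 0.24 (SE 0.18, adjusted p = 0.823).

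The NRF2 and BACH1 genes, whose factors drive and repress Hmox1, had 9 of 9 tested, 6 above 0 and 3 below, with a median of 0.08 that ran from −0.05 without mPGC-1α array 2 to 0.29 without control array 2. In the latter fit the median over all tested probes was 0.17. Bach1, the repressor, read 1.02, 1.00 and 0.33 in control and 1.35, 0.93 and 1.50 in mPGC-1α microglia, a difference of 0.47 (SE 0.26, adjusted p = 0.757). Srxn1, for sulfiredoxin, read 1.35, 1.10 and −0.42 against 1.74, 1.43 and 1.57, without overlap, a difference of 0.90 (SE 0.41, adjusted p = 0.704) that was 0.36 within the first slide and 2.00 within the second. Hmox1, Srxn1, Bach1 and the leading Slc11a2 probe were all lowest on control array 3. Nqo1, a quinone reductase and known NRF2 target, lay on the other side: it read −1.29, −1.06 and −0.54 against −2.61, −1.56 and −1.63, without overlap, a difference of −0.97 (SE 0.34, unadjusted p = 0.0184, adjusted p = 0.669). Nfe2l2, the gene for NRF2, whose probe is assigned to a noncoding RefSeq record, differed by −0.07 (SE 0.55), and that sign turned under quantile normalization (0.02).

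**Figure D4:**
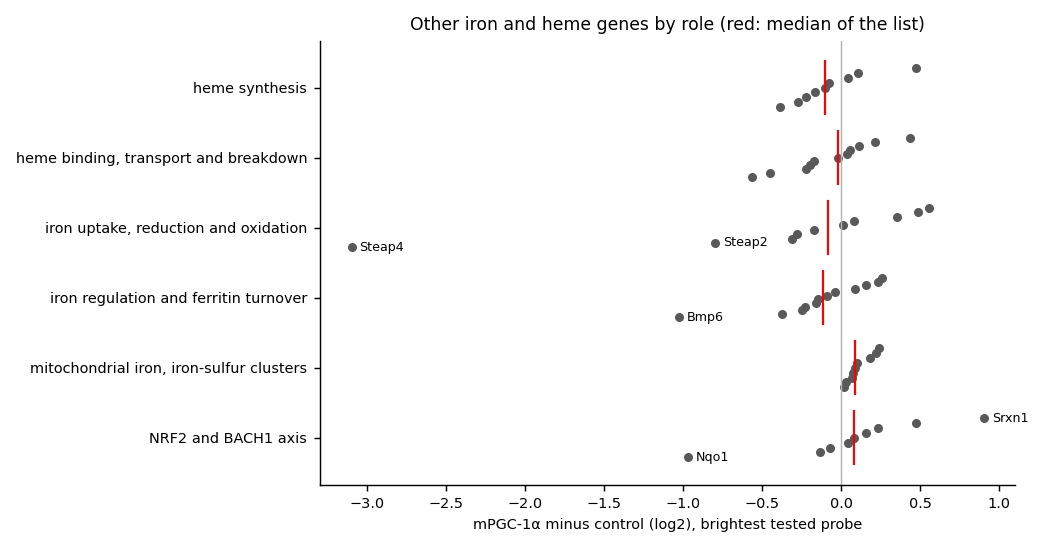
Difference between mPGC-1α and control (log2, x axis) for the brightest tested probe of each of the 60 other iron and heme genes, grouped by role (y axis). Each point is a gene and each red line the median of its group; genes beyond 0.8 are named, no point passed the adjusted threshold, and for Steap4, not well above background on 2 mPGC-1α arrays, the position is not a measured size.

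Without control array 2, 83 probes of the other iron and heme genes were tested and 7 passed the adjusted threshold, all 7 lower in mPGC-1α microglia, beside 5.1% of all probes called lower in that fit. They belonged to Steap4, Slc39a8, Cd163, Aco1, Fbxl5, Alas1 and Isca1, with differences from −3.24 to −1.27 for the last 5. The Steap4 and Slc39a8 probes fell below the dimmest signal that counted as above background on at least 1 mPGC-1α array. They passed the filter on dim probes only through the control arrays, so their lower direction was fixed in part by that filter. The sizes of their differences are not given. For example, the Alas1 probe A_66_P109200 read 2.36, −0.04 and 2.07 in control and 0.41, 0.08 and 0.35 in mPGC-1α microglia, and the Cd163 probe A_55_P2289819 read −0.73, −3.47 and −0.50 against −3.92, −4.04 and −3.59. Control array 2 was below both other control arrays in 7 of the 7, as in the Cp probe, but a fit that leaves it out favours such probes, so that count is fixed in part by how they were chosen. In 6 of the 7 another probe of the same gene was brighter and was not called. For Alas1 that brightest probe read 2.70, 2.27 and 2.69 against 2.24, 2.09 and 2.50, a difference of −0.28 over all arrays (SE 0.20, adjusted p = 0.817). For Cd163 it read −0.14, 0.59 and 0.23 against −0.37, −0.42 and 0.13, with control array 2 the highest.

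**Figure D5:**
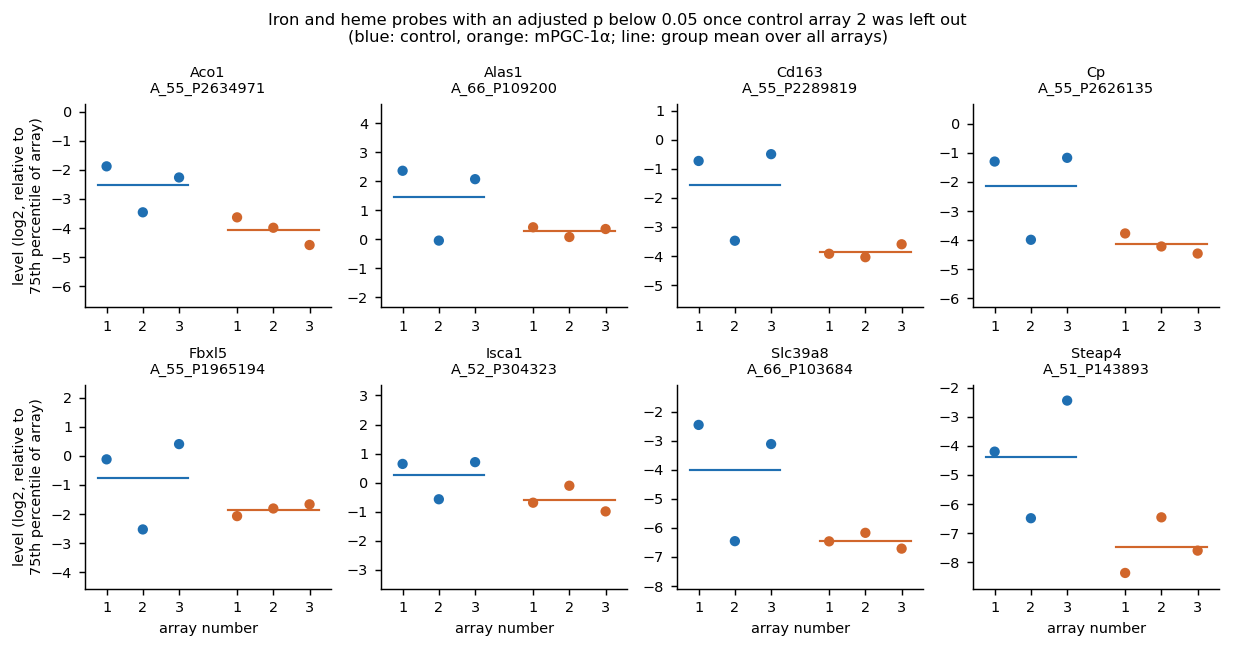
Level (log2, relative to the array's 75th percentile, y axis) of the 7 other iron and heme probes and the 1 Cp probe that had an adjusted p below 0.05 in the fit without control array 2, on each array (x axis). Control arrays are blue, mPGC-1α arrays orange and lines are group means over all 3 arrays; control array 2 is the lowest control array in all 8 panels, which choosing probes by that fit favours.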

How the data were processed

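Microglial RNA of 3 control and 3 mPGC-1α samples, grouped by genotype label, was hybridised to 1 array each. The labels name Cy3 in one field and Cy5 in another; the files hold 1 green channel. Deposited scanner files give a linear intensity for each spot from Agilent Feature Extraction 11.5.1.1, background-subtracted but not normalized between arrays. Log2 values that the authors normalized in GeneSpring served as an alternative only.

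In R 4.3.3 (data.table package, version 1.17.8), log2 intensity minus the array's 75th percentile over all 59305 spots that are not controls was taken, outlier-marked spots were left out, and replicate spots were averaged. Tests needed a signal well above background on every unmarked array (at least 2) of either group and at least 2 values a group, which left 40745 probes, 3750 with a missing value. Groups were compared with limma 3.58.1 (lmFit, eBayes with trend, two-sided, Benjamini-Hochberg over all tested probes), and single probes by an exact two-sided permutation test over all 20 assignments. The procedure was tested on simulated data. The number of arrays limits the precision. No label says that samples came from separate animals, so p-values measure only the spread between these samples.

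Probes were named through their accession and the RefSeq genes of GRCm38.p6, which matched 33767 of 56605 probes. The array was annotated on an older build, so no probe coordinates are given. The members and lists were chosen with earlier results of these data known. All probes of the 10 genes are reported. For other genes the brightest tested probe was used, and those named are up to 3 higher and 3 lower without overlap by smallest p, and 10 chosen by name (Alas2, Hmox2, Ireb2, Aco1, Ncoa4, Lcn2, Bach1, Nfe2l2, Hpx and Heph). Steap4 and the genes called without control array 2 were named after their values were seen.

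Whether replicate numbers pair the samples was checked by correlating each array's deviations from its group mean across probes. For equal numbers r was 0.247, 0.224 and 0.171, and for unequal ones it lay between −0.337 and 0.0346. Deviations are taken within each group, so these values are not independent of each other. The meaning of a number is not labelled. The main fit, which gave the SE, intervals and p-values of single probes, did not pair the arrays. A fit with the replicate number as a block was run as an alternative. The 2 slides held arrays 1 and 2, and array 3, of each group. Alternatives were quantile normalization, normexp background correction (offset 50), the authors' matrix, other filters, keeping marked spots, slide and replicate blocks, no trend, the mean of all probes and leaving out each array.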

Additional observations from a re-analysis of the deposited data

Results flagged for a closer look

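Hamp was flagged because it gave a signal outside the tested probes that was above the control arrays: on mPGC-1α array 1 its level was −4.67, where the control arrays read −7.15, −6.93 and −5.74, none of them well above background. The probe was also well above background on mPGC-1α array 2, at −6.16, and not on mPGC-1α array 3, at −7.24. With no filter on dim probes the difference was 0.58 (SE 0.66, adjusted p = 0.995).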

How the results depend on the processing

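No probe of the 10 genes and none of the other iron and heme genes was called under any of the processing alternatives, and leaving out 1 array gave 0 to 1 and 0 to 7 calls, the highest without control array 2, where the count over all probes went from 0 to 2130 (125 higher, 2005 lower). The cause was not tested. With the replicate block 1 of 40745 probes (0.00245%) was called, none of it in these genes, and an unadjusted p below 0.05 was reached by 5 of the 16 probes instead of 1 and by 11.7% instead of 7.15% of all probes; the block changed no other call. Of 348 differences under processing alternatives 318 kept their direction and side of the threshold and 30 changed sign; of 174 with 1 array left out, 158 kept them, 15 changed sign and 1 passed the threshold (Cp A_55_P2626135, −2.92).

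Under quantile normalization the sign turned for Trf A_55_P2037585 (−0.22), Slc11a1 (−0.13), Ftl1 A_55_P1983959 (−0.21), Fth1 (−0.045), Cp A_55_P2111302 (−0.057) and Nfe2l2 (0.022), and the replicate block with quantile normalization, chosen after seeing the data, gave the same values of −0.22, −0.13, −0.21, −0.045, −0.057 and 0.022. Under normexp with quantile normalization the sign turned for Trf (−0.26), Slc11a1 (−0.13), Ftl1 (−0.19), Fth1 (−0.044), Cp (−0.10) and Hpx (0.0089). Under the authors' matrix it turned for Trf (−0.17), Slc11a1 (−0.12), Ftl1 (−0.11), Fth1 (−0.045), Cp (−0.058), Nfe2l2 (0.038) and Ncoa4 (0.022). With marked spots kept it turned for Trf (−0.018) and Ncoa4 (0.088), with the percentile over unmarked probe means, also chosen after seeing the data, for Nfe2l2 (0.023) and Aco1 (0.0053), and with the mean of all tested probes for Cp (−0.73). With 1 array left out the values ranged from −0.093 to 0.081 for Cp A_55_P2111302, −0.15 to 0.13 for Slc11a1, −0.29 to 0.75 for Slc11a2 A_52_P196476, −0.16 to 0.025 for Ncoa4, −0.76 to 0.57 for Nfe2l2, −0.43 to 0.21 for Hpx, −0.17 to 1.17 for Alas2 and −0.39 to 0.14 for Lcn2. The 95% interval over all 6 arrays included 0 for each difference that changed sign. With the percentile over unmarked probe means, the medians of the heme binding and of the iron uptake genes were also above 0 (0.07 and 0.01). Dim probes, such as Hamp, limit what can be said of levels near background.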

Other observations

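The 3 untested probes had no difference past the threshold when the filter on dim probes was dropped: Hamp 0.58 (SE 0.66), Tfrc A_65_P06446 −0.66 (SE 0.55) and Cp A_55_P2087607 −0.37 (SE 0.53), each with an adjusted p of 0.995.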
